A study of Mus musculus with 2 samples.

Results

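Single-cell RNA sequencing was run on the retina of mice at P6, in the first week after birth, and 9 of the 32285 genes in the deposited count matrices are described here. The 9 were chosen by symbol: 5 inhibitors of cyclin-dependent kinases (Cdkn1a, Cdkn1b, Cdkn1c, Cdkn2c and Cdkn2d), 3 targets of p53 (Phlda3, Mdm2 and Ccng1) and the retinoblastoma gene Rb1. Each symbol matched 1 gene. The Alk1 ECKO library came from Alk1f/f mice that carry Cdh5 CreERT2, a tamoxifen-dependent Cre recombinase driven in endothelial cells, and the control library came from Alk1f/f mice, so both carry the floxed Alk1 alleles and the control no Cre by its label. Both cell suspensions passed over beads against CD31, a surface protein of endothelium, before 10x Genomics 3' libraries were made. The sources used here give neither the time and agent of Cre induction nor the number of animals per library. With 1 library per genotype, a difference between genotypes cannot be told apart from a difference between libraries, and no test was made. Cells in the cell cycle were set against cells outside it within each library.

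Cyclin-dependent kinases drive a cell through its division cycle by phosphorylating the retinoblastoma proteins, which otherwise hold back E2F transcription factors. Inhibitors of the CIP/KIP family (p21 from Cdkn1a, p27 from Cdkn1b and p57 from Cdkn1c) bind many cyclin and kinase complexes, whereas those of the INK4 family (p18 from Cdkn2c and p19 from Cdkn2d) bind CDK4 and CDK6. p53, stabilised after DNA damage and other stress, activates Cdkn1a, Phlda3, Ccng1 and Mdm2, and the MDM2 protein in turn marks p53 for degradation. In vessels of the developing retina, endothelial cells near the sprouting front divide and cells that join arteries leave the cycle.

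The windows before the annotated starts of 3 p53 targets are shown because these were the genes called higher in Alk1 ECKO endothelial cells. They were read from RefSeq (GRCm38.p6), 5′ to 3′ on the gene's strand, and end at the start of the gene in RefSeq or in GENCODE, whichever came first. Capitals mark the half-sites of every match to the p53 full site, the sequence at which p53 binds as a tetramer, with at most 2 mismatches in total and a spacer of at most 13 bases. The half-site is its own reverse complement, so a match covers both strands.
Cdkn1a, first of 2 starts, chr17:29090729-29090975, plus strand: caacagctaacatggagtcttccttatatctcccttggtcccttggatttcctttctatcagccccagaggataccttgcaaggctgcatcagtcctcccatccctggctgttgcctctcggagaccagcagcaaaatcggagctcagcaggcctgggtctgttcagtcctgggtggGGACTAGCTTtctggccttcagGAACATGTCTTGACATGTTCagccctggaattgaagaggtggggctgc
Ccng1, chr11:40755312-40755536, minus strand: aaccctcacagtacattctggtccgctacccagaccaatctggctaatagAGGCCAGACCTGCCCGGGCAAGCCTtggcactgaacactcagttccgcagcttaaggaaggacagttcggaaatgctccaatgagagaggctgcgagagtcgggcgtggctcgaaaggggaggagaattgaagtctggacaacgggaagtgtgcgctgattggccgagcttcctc
Phlda3, chr1:135765835-135766084, plus strand: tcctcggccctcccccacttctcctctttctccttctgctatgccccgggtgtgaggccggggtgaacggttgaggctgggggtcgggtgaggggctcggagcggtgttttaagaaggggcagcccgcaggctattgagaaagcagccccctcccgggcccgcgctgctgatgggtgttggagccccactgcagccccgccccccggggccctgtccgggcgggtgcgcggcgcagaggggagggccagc
Positions are counted back from the RefSeq start, and the 250 bases before it were searched. The printed windows of Cdkn1a and Ccng1 end before that start, at the GENCODE start. The first start of Cdkn1a had a match with 0 mismatches and a spacer of 12 bases, 73 to 42 bases before the start, and a second with 1 mismatch and a spacer of 0, 51 to 32 bases before it. The 2 share a half-site. Ccng1 had a match with 1 mismatch and a spacer of 0, 195 to 176 bases before its start, which overlaps one with 2 mismatches. None was found in the 250 bases before the Phlda3 start, before the second start of Cdkn1a or before the starts of Cdkn1b, Cdkn2c, Cdkn2d and Mdm2. Of the 250 bases searched for Cdkn2d, only 52 lay before the GENCODE start. Of 32851 RefSeq starts, 3.34% had a match in the same window. A match describes letters only, and 3' counts do not tell which start of Cdkn1a was used. The starts of 7 of the 9 genes were in the table.

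Alk1 ECKO gave 62728605 UMIs (unique transcript counts) in 5308 barcodes and control 54800465 in 8739, and 20 barcode sequences occurred in both. After filtering, 4093 and 7409 cells remained. Endothelial cells numbered 1364 in Alk1 ECKO and 313 in control, with median depths of 17700 and 19620 UMIs, and all 12 endothelial markers lay above 50 CPM (UMIs scaled to the total of the class) in each. A group of 1244 Alk1 ECKO barcodes and 3 control barcodes with few mitochondrial UMIs was set aside. Haemoglobin genes led both of its clusters. Endothelial markers were highest among the classes compared, which left out erythroid markers. Acvrl1, which encodes ALK1, was at 115.6 CPM in Alk1 ECKO and 115.0 CPM in control endothelial cells, and since 3' reads need not cover the floxed exons this level does not check the genotype. Mural cell markers summed to 380.1 CPM in Alk1 ECKO and 60.0 CPM in control endothelial cells (12 of 12 detected in each, 2 and 0 above 50 CPM). Rod markers summed to 13.1 and 84.9 CPM, and those of microglia to 53.9 and 49.4 CPM. Their part in the results was not tested.

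Of the 9 genes, Phlda3 and Cdkn1a differed most between genotypes in endothelial cells. Phlda3 encodes a pleckstrin homology protein that restrains AKT. Its level was 50.1 CPM (95% interval 48.0 to 52.2, 2255 UMIs) in Alk1 ECKO and 11.2 CPM (9.30 to 13.4, 119 UMIs) in control endothelial cells. Cdkn1a was at 173.6 CPM (169.8 to 177.5) in Alk1 ECKO and 73.5 CPM (68.4 to 78.8) in control. Ccng1, which encodes the p53-induced cyclin G1, was at 21.8 CPM (20.4 to 23.2) in Alk1 ECKO and 14.7 CPM (12.5 to 17.2) in control. The intervals of all 3 genes lay apart between libraries. Mdm2, the p53 antagonist and itself a p53 target, was at 29.7 CPM (28.1 to 31.3) in Alk1 ECKO and 30.6 CPM (27.3 to 34.1) in control, and its intervals overlapped. All intervals are exact and cover counting error only, not the spread between animals.

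Because the median log2 ratio of Alk1 ECKO over control was -0.22 over 12849 genes with at least 30 UMIs, ratios are given relative to that median. A gene is called higher or lower where its relative ratio passes 1.5-fold and its interval does not reach 0. By this rule 3 of the 9 were higher in Alk1 ECKO, against 10.2% of all measured genes, and 1 was lower, against 9.58%. The relative log2 ratio was 2.37 (2.11 to 2.65) for Phlda3, 1.46 (1.35 to 1.56) for Cdkn1a and 0.78 (0.54 to 1.03) for Ccng1. Mdm2, at 0.17 (-0.00 to 0.35), was not called. The median relative ratio of the 9 genes was 0.23.

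The differences in Cdkn1a and Phlda3 were present both in cycling and in non-cycling endothelial cells. A cell counted as cycling with at least 2 UMIs of Mki67 and Top2a, which are transcribed in dividing cells, and as non-cycling with 0. Cycling cells were 512 of 1364 (37.5%, Clopper-Pearson interval 35.0 to 40.2) in Alk1 ECKO and 125 of 313 (39.9%, 34.5 to 45.6) in control. Their median depths were 50550 and 42220 UMIs, against 9104 and 11090 UMIs in non-cycling cells, so the 2 states also differ in depth. Mki67 was at 113.4 CPM in Alk1 ECKO and 208.8 CPM in control endothelial cells, and Top2a at 158 and 236.7 CPM. Whether the same cut-off takes like cells in each library was not tested. In cycling cells Cdkn1a was at 158.6 CPM in Alk1 ECKO and 66.7 CPM in control, a relative log2 ratio of 1.46 (1.33 to 1.61). In non-cycling cells it was at 206.1 CPM in Alk1 ECKO and 81.1 CPM in control, a ratio of 1.47 (1.26 to 1.69). Phlda3 was at 52.9 CPM in Alk1 ECKO and 14.1 CPM in control cycling cells (ratio 2.12, 1.83 to 2.44), and at 44.0 and 4.91 CPM in non-cycling cells (3.29, 2.47 to 4.25), where control held only 12 UMIs. Ccng1 was called higher in Alk1 ECKO in cycling cells (0.84, 0.53 to 1.16) and not in non-cycling cells (0.49, -0.03 to 1.04). In cycling cells 9.98% of measured genes were called higher and 8.59% lower, and in non-cycling cells 8.67% and 10.3%.

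**Figure D1:**
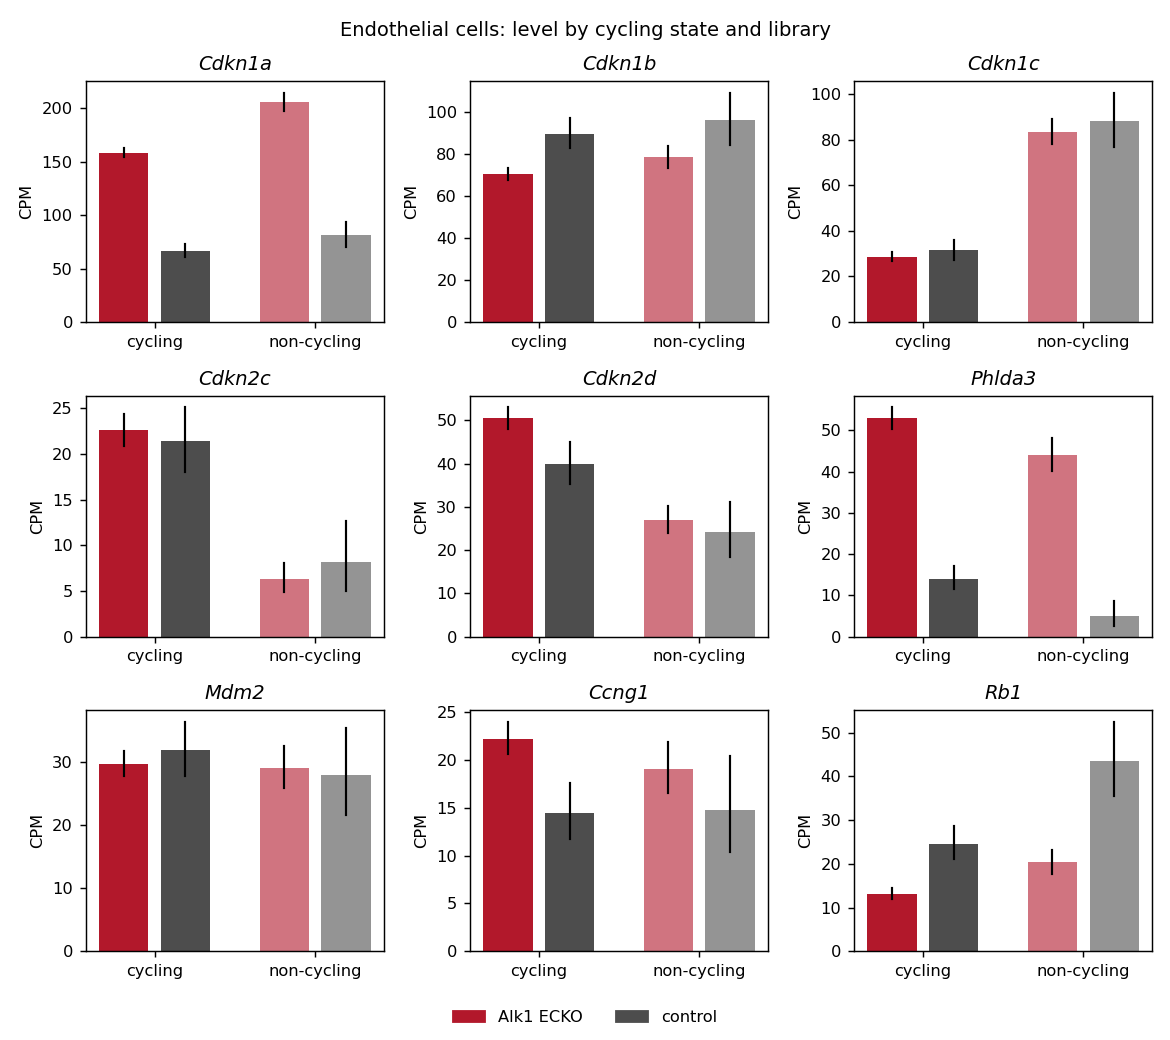
Level of each of the 9 genes in CPM (y axis, from 0) in cycling and non-cycling endothelial cells of the Alk1 ECKO (red, left of each pair) and control (grey) libraries. Black lines are 95% Poisson intervals. Cdkn1a and Phlda3 stand higher in Alk1 ECKO in both states, Rb1 stands lower in both, and Cdkn1c is near 30 CPM in cycling cells and over 80 CPM in non-cycling cells of both libraries.

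At equal depth the picture in single cells was alike. With each cell thinned to 5000 UMIs, a Cdkn1a UMI was found in 50.7% of 1006 Alk1 ECKO and 24.8% of 290 control cells of the endothelium, and a Phlda3 UMI in 21.1% and 2.76%. Thinned in the same way, Müller glia or late progenitors, whose full median depths were 5232 and 6060 UMIs, held a Cdkn1a UMI in 1.96% of 102 Alk1 ECKO and 6.85% of 511 control cells (2 and 35 cells), and a Phlda3 UMI in 0.98% and 2.94% (1 and 15 cells). The 10% of Alk1 ECKO endothelial cells with most Cdkn1a UMIs held 41.1% of the thinned UMIs of this gene, and the highest cell held 10. For Cdkn1c that share was 72.6%, with 15 UMIs in the highest cell. In control the shares were 54.3% for Cdkn1a and 65.9% for Cdkn1c. Such a share depends on the UMIs per cell. Cdkn1a had 917 thinned UMIs and Cdkn1c 310 in Alk1 ECKO, and 94 and 88 in control. The shares therefore do not compare spread over cells between genes or libraries.

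Other genes activated by p53 differed in the same direction more often than in the opposite one. Of 31 measured targets in a list without the 9 genes, 14 were higher and 2 lower in endothelial cells of Alk1 ECKO, with a median relative log2 ratio of 0.36 against 0 over all genes. This list, like the following ones, was chosen with earlier results of these data known and is not independent of them. Over all 12849 measured genes 10.2% were higher and 9.58% lower. Against these shares this and the following lists are read where endothelial cells are compared between genotypes. Those with the highest ratios had low counts. Eda2r, a receptor of the TNF receptor family, had 64 UMIs in Alk1 ECKO and 1 in control (ratio 4.13, 1.60 to 9.45). The stress cytokine gene Gdf15 was at 1.93 CPM in Alk1 ECKO and 0.472 CPM in control (2.25, 0.97 to 3.91), and Ephx1, an epoxide hydrolase, at 3.49 and 1.23 CPM (1.72, 0.91 to 2.66). The 2 lower genes were Ddit4, an inhibitor of mTORC1, at 27.3 CPM in Alk1 ECKO and 58.1 CPM in control (-0.87), and Sesn1, a sestrin, at 24.4 and 48.5 CPM (-0.77). Apaf1, which forms the apoptosome, was at 19.4 and 27.9 CPM (-0.31) and was not called.

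Of 12 genes that encode p53 or its regulators, 1 was higher and 3 were lower, with a median relative ratio of -0.36. Chek2, a checkpoint kinase, was higher (33.8 CPM in Alk1 ECKO and 25.9 CPM in control, 0.60). The DNA damage kinases Atm (-0.97) and Atr (-0.77) and the damage adaptor Trp53bp1 (-0.70) were lower. Usp7, which deubiquitinates MDM2 and p53, had a ratio of -0.07 and the phosphatase gene Ppm1d one of -0.13, neither of them called.

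Transcripts that respond quickly to stress also differed between the libraries. Of 15 heat shock and immediate early genes, in endothelial cells 11 were higher and 3 lower in Alk1 ECKO, with a median of 0.79. Fos was at 379.8 CPM in Alk1 ECKO and 145.8 CPM in control, a relative ratio of 1.60, and Fosb (1.56) and Atf3 (1.29) were higher too. The chaperone genes Hspa1b (-4.79), Hspa1a (-3.97) and Hsph1 (-1.04) were lower. In microglia or macrophages of the same libraries 5 of 13 measured genes of this list were higher and 1 lower, against 6.16% and 8.54% of all measured genes. In rods 3 of 13 were higher and 2 lower, against 7.32% and 5.85%. Several of these genes respond to tissue dissociation, and their part in the p53 target differences was not tested.

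**Figure D2:**
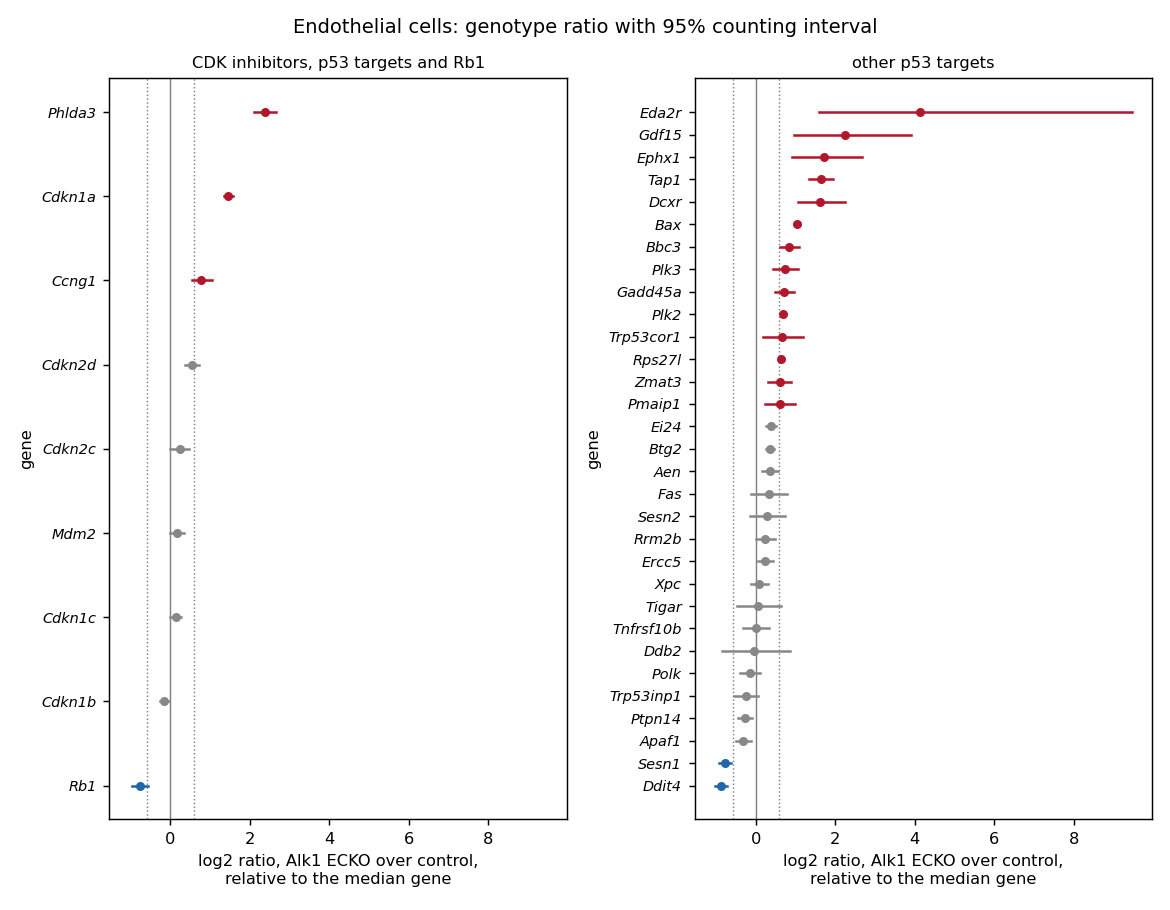
Relative log2 ratio of Alk1 ECKO over control in endothelial cells (x axis) for the 9 genes (left) and 31 other p53 targets (right), each point with its 95% counting interval. Red points were called higher, blue lower and grey neither, and dotted lines mark 1.5-fold. Phlda3 (2.37) and Eda2r (4.13) head the panels, and Eda2r has the widest interval because control held 1 UMI.

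Of the other CIP/KIP genes, Cdkn1c differed between cycling and non-cycling cells, and neither it nor Cdkn1b was called between genotypes over all endothelial cells. Cdkn1c, an imprinted inhibitor of growth, was at 28.7 CPM (26.8 to 30.6) in cycling and 83.3 CPM (77.9 to 88.9) in non-cycling endothelial cells of Alk1 ECKO. In control it was at 31.4 CPM (27.4 to 35.9) in cycling and 88.0 CPM (76.7 to 101) in non-cycling cells. The relative log2 ratios of cycling over non-cycling cells, -1.45 (-1.59 to -1.31) in Alk1 ECKO and -1.47 (-1.75 to -1.19) in control, were nearly equal. Between genotypes Cdkn1c, at 43.4 CPM in Alk1 ECKO and 46.0 CPM in control endothelial cells (0.13, -0.01 to 0.28), was not called, although it differed in opposite directions within sub-clusters, as given further on. Cdkn1b, whose protein p27 is controlled largely by degradation, was at 70.6 CPM in cycling and 78.5 CPM in non-cycling Alk1 ECKO cells (-0.06, -0.18 to 0.05), and at 89.7 and 96.2 CPM in control (-0.09, -0.30 to 0.14). Its level over all endothelial cells was 72.8 CPM in Alk1 ECKO and 93.7 CPM in control, a relative ratio of -0.15 (-0.25 to -0.05), whose interval lies off 0 and whose size is under 1.5-fold.

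Both INK4 genes were higher in cycling cells. In Alk1 ECKO Cdkn2c was at 22.6 CPM in cycling and 6.34 CPM in non-cycling cells (1.92, 1.56 to 2.31), and Cdkn2d at 50.4 and 27.01 CPM (0.99, 0.81 to 1.18). In control Cdkn2c was at 21.4 CPM in cycling and 8.19 CPM in non-cycling cells (1.4, 0.72 to 2.15), and Cdkn2d at 39.98 and 24.2 CPM (0.74, 0.33 to 1.17). With cells thinned to 5000 UMIs the control cells no longer gave these calls: Cdkn2d had a ratio of 0.07 (-0.99 to 1.13), and Cdkn2c and Phlda3 were under 30 UMIs. Between genotypes Cdkn2c had a relative ratio of 0.23 (-0.01 to 0.47) and Cdkn2d one of 0.54 (0.38 to 0.71), neither past 1.5-fold. Under 3 of 18 alternatives the call of Cdkn2d changed. Within the mitotic sub-cluster both passed 1.5-fold, Cdkn2c at 31.8 CPM in Alk1 ECKO and 22.3 CPM in control (0.68, 0.38 to 0.99) and Cdkn2d at 62.0 and 40.6 CPM (0.77, 0.55 to 0.996). The share of all measured genes past 1.5-fold in this sub-cluster is not given.

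Of the 9 genes, 2 were higher in cycling Alk1 ECKO cells, against 8.91% of measured genes, and 1, Cdkn1c, was lower, against 5.91%. In control 3 were higher, against 12.4%, and 2, Cdkn1c and Rb1, lower, against 9.81%. The third higher gene in control was Phlda3, at 14.1 CPM in cycling and 4.91 CPM in non-cycling cells (1.54, 0.67 to 2.54), a ratio that was 0.36 (0.21 to 0.51) in Alk1 ECKO, and whether the 2 ratios differ was not tested. Cdkn1a was somewhat lower in cycling cells of each library without being called (-0.29 in Alk1 ECKO and -0.27 in control). Mdm2 (0.12 and 0.21) and Ccng1 (0.32 and -0.02) were not called in either. Of the other p53 targets, 1 of 31 was higher and 4 were lower in cycling Alk1 ECKO cells, and 1 of 26 was higher and 6 were lower in control.

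Ordering cells by their Mki67 and Top2a UMIs showed where the cycle-dependent genes differ. Cells with 0, 1, 2 to 5, 6 to 20 and over 20 such UMIs had Cdkn2c at 6.34, 5.50, 6.93, 16.1 and 30.3 CPM in Alk1 ECKO, and at 8.19, 9.38, 8.78, 7.40 and 28.2 CPM in control. Cdkn2d was at 27.01, 24.7, 23.5, 38.5 and 63.9 CPM in the same groups of Alk1 ECKO, and at 24.2, 18.8, 19.2, 20.3 and 50.4 CPM in control. Both INK4 genes were thus highest in the cells with most Mki67 and Top2a, which are also the deepest, with medians of 83420 and 75570 UMIs. Cdkn1c was at 83.3, 46.3, 51.4, 28.2 and 20.8 CPM in Alk1 ECKO, already lower with 1 UMI of the pair than with 0. In control Cdkn1c was at 88.0, 43.8, 34.3, 23.1 and 32.6 CPM, with overlapping intervals in the last 3 groups.

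**Figure D3:**
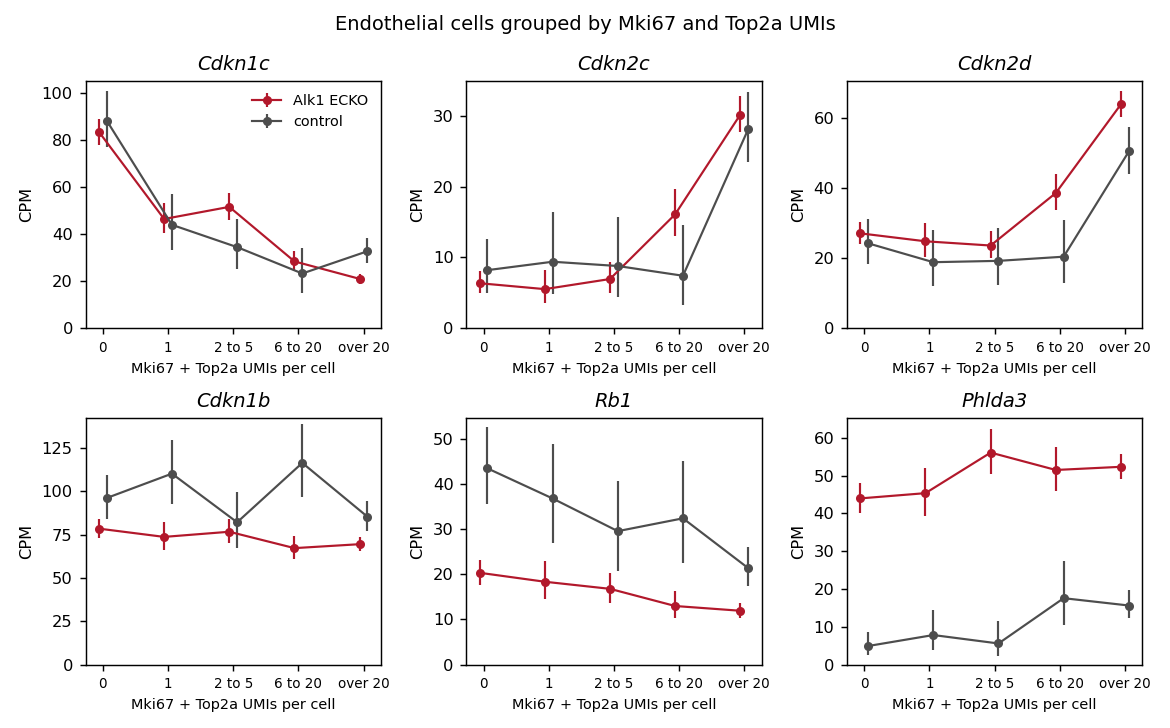
Level in CPM (y axis, from 0) of 6 genes in endothelial cells grouped by their summed Mki67 and Top2a UMIs (x axis, groups not evenly spaced), in Alk1 ECKO (red) and control (grey), with 95% Poisson intervals. Cdkn1c is highest in cells with 0 such UMIs and Cdkn2c and Cdkn2d in cells with over 20, in both libraries, while Phlda3 stays between 44.0 and 56.1 CPM in Alk1 ECKO.

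Rb1 encodes the retinoblastoma protein that the CDK4 and CDK6 complexes phosphorylate, and was the 1 gene of the 9 called lower in Alk1 ECKO endothelial cells. It was at 15.3 CPM (14.2 to 16.5) in Alk1 ECKO and 30.4 CPM (27.2 to 33.9) in control, a relative log2 ratio of -0.77 (-0.96 to -0.58). In cycling cells it was at 13.1 CPM in Alk1 ECKO and 24.6 CPM in control (-0.69), and in non-cycling cells at 20.3 and 43.4 CPM (-0.97). Within each library it was lower in cycling than in non-cycling cells, by a relative ratio of -0.81 (-1.16 to -0.44) in control, which was called, and -0.54 (-0.78 to -0.29) in Alk1 ECKO, which was not.

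Among 17 other pocket protein, E2F and DREAM complex genes, 0 were higher and 1 was lower in endothelial cells of Alk1 ECKO, the pocket protein gene Rbl1 at 10.3 CPM in Alk1 ECKO and 18.6 CPM in control (-0.64). Their median relative ratio was -0.24. Their cell cycle difference was larger: 10 of 17 were higher in cycling cells of Alk1 ECKO (median 0.92), against 8.91% of measured genes. In control 11 of 17 were (median 1.46), against 12.4%. Of 14 other CDK inhibitors, CDKs and cyclins, 4 were higher and 0 lower in Alk1 ECKO. Cdkn2a, the locus of the p16 and ARF proteins, was at 5.44 CPM in Alk1 ECKO and 1.42 CPM in control (2.16, 1.41 to 3.02), on 15 control UMIs. Cdk6 was at 3.51 and 2.36 CPM (0.79), and Ccnd1, which encodes cyclin D1, at 369.2 and 251.1 CPM (0.77). Among 14 genes that act on p27 or p57 or are reported to induce them, 2 were higher, the flow-responsive factors Klf2 (492.5 CPM in Alk1 ECKO and 235.9 CPM in control, 1.28) and Klf4 (0.71). Skp2, which marks p27 for degradation, had a ratio of -0.44 and was not called. Of 15 mitosis genes other than Mki67 and Top2a, 1 was higher and 0 were lower, while Mki67 itself was at 113.4 CPM in Alk1 ECKO and 208.8 CPM in control.

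Sub-clusters of endothelial cells were filled unequally by the libraries, so the genes were also compared within them. Only 3 of 7 sub-clusters had at least 20 cells in each library: a mitotic one led by Hist1h1b (251 Alk1 ECKO and 103 control cells), one led by Spock2 and Slco1c1 (61 and 167 cells) and one led by Cxcl12 and Rbp7 (147 and 22 cells). Cdkn1a was higher in all 3, at 141.1, 178.8 and 216.6 CPM in Alk1 ECKO and 66.0, 79.3 and 86.6 CPM in control, with relative ratios between 1.17 and 1.43. The share of all genes that differ between genotypes within these sub-clusters is not given. Phlda3 was at 52.2 CPM in Alk1 ECKO and 18.5 CPM in control in the mitotic sub-cluster (1.66, 1.35 to 1.98), and at 11.3 and 1.79 CPM in the Spock2 sub-cluster (2.66, 1.35 to 4.09, on 16 and 8 UMIs). In the Cxcl12 sub-cluster it was at 32.4 and 23.4 CPM, with an interval that reaches 0 (0.57, -0.24 to 1.52).

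The ratio of Rb1 varied across these sub-clusters, and that of Cdkn1c took opposite directions in a pair of them. Rb1 was at 38.9 CPM in each library in the Spock2 sub-cluster (-0.00, -0.47 to 0.44), at 12.7 CPM in Alk1 ECKO and 17.5 CPM in control in the mitotic one (-0.31, -0.68 to 0.07), and at 25.6 and 70.3 CPM in the Cxcl12 one (-1.35, -1.88 to -0.79). Cdkn1c was at 128.9 CPM in Alk1 ECKO and 295.8 CPM in control in the Cxcl12 sub-cluster (-1.09, -1.34 to -0.84), but at 65.0 and 41.3 CPM in the Spock2 sub-cluster (0.65, 0.28 to 1.02). Weighted so that these 3 sub-clusters took the same share in each library, the relative ratio was 1.29 for Cdkn1a, 1.42 for Phlda3, 0.28 for Ccng1 and -0.43 for Rb1, and Ccng1 and Rb1 were not called. This value leaves out the other 4 sub-clusters and also reweights the 3 kept, and which of these moved the ratios was not tested. Those 3 sub-clusters hold 459 of the 1364 endothelial cells of Alk1 ECKO and 292 of the 313 of control.

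The other 4 sub-clusters had fewer than 20 control cells and are given by their Alk1 ECKO levels. A sub-cluster led by Angpt2 and Kcne3 (320 Alk1 ECKO and 14 control cells) had Cdkn1a at 178.9 CPM and Phlda3 at 61.2 CPM in Alk1 ECKO, and one led by Apod and Rarres1 (299 and 2 cells) had 199.1 and 44.7 CPM. A sub-cluster led by Fbln2 and Dkk2 with Cd74 (183 and 1 cells, median 2476 UMIs in Alk1 ECKO) had the highest Phlda3 level, 144.2 CPM (118 to 175), with Cdkn1a at 105.4 CPM, lower than in the other sub-clusters of Alk1 ECKO. The sub-cluster rich in mural markers, led by Rgs5 and Higd1b (103 and 4 cells), had Cdkn1a at 183.5 CPM and Phlda3 at 49.2 CPM.

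Across cell classes the inhibitors divided the retina differently. Cdkn1a was highest in microglia or macrophages, at 328.2 CPM in Alk1 ECKO and 282.7 CPM in control, and endothelial cells were the second in order in Alk1 ECKO and the third in control, with intervals apart from their neighbours. In rods it was at 19.1 and 12.2 CPM and in bipolar cells at 2.80 and 5.12 CPM, and whether free RNA gave these UMIs was not tested. Cdkn1b and Cdkn1c had a different order. In Müller glia or late progenitors, the class of radial glia and the last dividing cells of the retina, Cdkn1b was at 408.6 CPM in Alk1 ECKO and 466.9 CPM in control. Endothelial cells had the third lowest Cdkn1b level of 10 classes in Alk1 ECKO and the second lowest of 13 in control, where their interval overlapped that of microglia or macrophages. Cdkn1c was highest in the same Müller class, at 286.3 and 181.1 CPM. It was at 141.8 CPM in Alk1 ECKO mural cells, at 19.6 and 24.0 CPM in bipolar cells, below the endothelial level with intervals apart, and in microglia or macrophages it was at 1.79 CPM (6 UMIs) and 1.26 CPM (1 UMI).

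Among the 10 classes with at least 50 cells in Alk1 ECKO, Phlda3 was low outside the vascular classes and the low-mitochondrial barcodes. Its highest levels there were 67.7 CPM in the low-mitochondrial barcodes, whose clusters haemoglobin genes led, 56.7 CPM (47.6 to 67.1) in mural cells and 50.1 CPM in endothelial cells. The intervals of mural and endothelial cells overlapped, and microglia or macrophages followed at 8.65 CPM. In control amacrine cells (18.8 CPM), microglia or macrophages (17.6 CPM) and endothelial cells (11.2 CPM) headed the order with intervals that overlapped from each to the next. Amacrine cells numbered 22 in Alk1 ECKO and were not ranked there. Mural cells had too few control cells (11) for a comparison between genotypes. Mdm2 had its lowest level of 13 control classes in endothelial cells (30.6 CPM) and its highest, 124.3 CPM, in a cluster led by Ccdc136 and Gngt2. Rb1 too was lowest in endothelial cells in control (30.4 CPM), followed by microglia or macrophages (37.7 CPM) with an overlapping interval and Müller glia or late progenitors (61.4 CPM), and the other 10 classes had between 65.7 and 84.3 CPM. Cdkn2c and Cdkn2d were highest in control in a histone-rich cluster led by Igf2 and Hist1h3c, at 141.1 and 162.4 CPM. Ccng1 lay between 13.6 and 40.6 CPM in all 13 control classes.

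**Figure D4:**
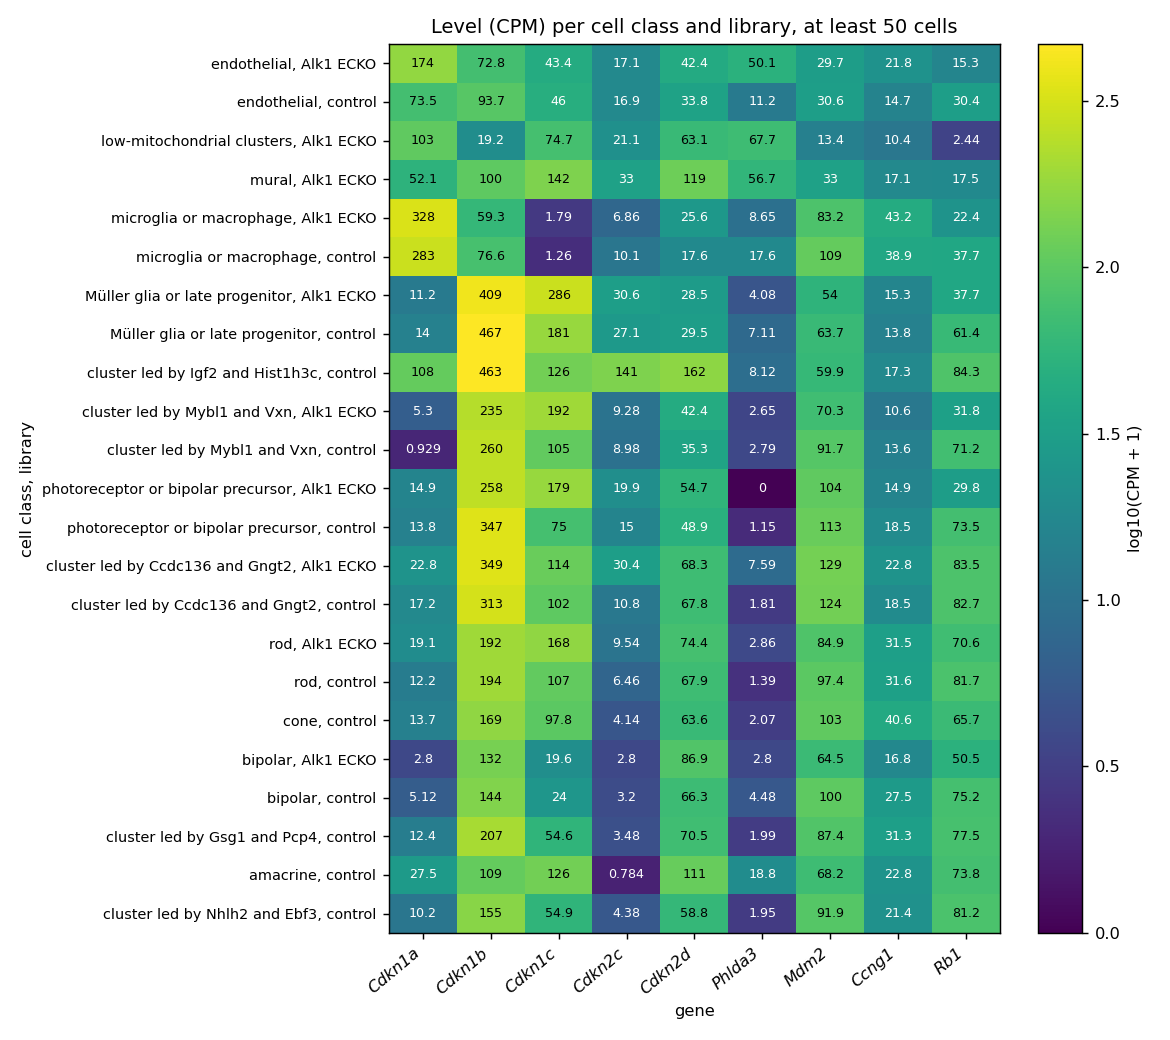
Level in CPM (numbers, with colour on a log10(CPM + 1) scale) of the 9 genes (columns) in each cell class and library with at least 50 cells (rows). Cdkn1a stands highest in microglia or macrophages, followed by endothelial cells in Alk1 ECKO and by the Igf2 and Hist1h3c cluster (107.6 CPM) and endothelial cells (73.5 CPM) in control. Cdkn1c stands highest in Müller glia or late progenitors, as does Cdkn1b, whose interval there overlaps that of the next class in each library. Phlda3 stands highest in the endothelial, low-mitochondrial and mural rows of Alk1 ECKO.

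Outside the endothelium the gene that differed most often between genotypes was Cdkn1c. It was called higher in Alk1 ECKO in 4 of the 6 other classes where it had at least 30 UMIs: Müller glia or late progenitors (relative log2 ratio 0.84, 0.64 to 1.04, where 5.54% of genes were called higher), rods (167.9 CPM in Alk1 ECKO and 106.7 CPM in control, 0.80, 0.57 to 1.04, where 7.32% were), photoreceptor or bipolar precursors (178.9 and 75.0 CPM, 1.41, 0.86 to 1.93, where 7.29% were) and a cluster led by Mybl1 and Vxn (192.2 and 104.7 CPM, 1.08, 0.79 to 1.37, where 9.40% were). The recombinase is driven by Cdh5, and its activity in these classes was not measured. In the same 3 named classes 5.73%, 5.85% and 3.25% of genes were called lower. Of the 9 genes, of which 9, 8 and 8 were measured there, 0 were called lower. Cdkn1a was called higher in rods (0.79, 0.03 to 1.48, on 20 Alk1 ECKO UMIs) and was not called in microglia or macrophages (0.35, 0.14 to 0.57). In microglia or macrophages 0 of the 8 measured among the 9 genes were called, against 6.16% of genes higher and 8.54% lower. None was called either in bipolar cells (6 measured), against 6.3% and 4.76%, or in the cluster led by Ccdc136 and Gngt2 (7 measured), against 4.64% and 2.32%. Rb1 was called lower in the Mybl1 and Vxn cluster (31.8 CPM in Alk1 ECKO and 71.2 CPM in control, -0.96, -1.63 to -0.35), where 6.24% of genes were called lower. Its ratio was -0.52 (-1.06 to -0.02) in Müller glia or late progenitors, -0.62 (-1.24 to 0.05) in microglia or macrophages and -0.06 (-0.43 to 0.28) in rods, none of them called. Cdkn1b was not called in any class, and Phlda3 had at most 29 UMIs in Alk1 ECKO in any of these classes.

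The list of other p53 targets was also counted in the 7 other classes. In rods 0 of 22 measured targets were higher and 3 lower (median -0.10), against 7.32% and 5.85% of all measured genes. In Müller glia or late progenitors 2 of 20 were higher and 2 lower (-0.20), against 5.54% and 5.73%. In microglia or macrophages 0 of 23 were higher and 6 lower (-0.06), against 6.16% and 8.54%. In photoreceptor or bipolar precursors 2 of 17 were higher and 1 lower (0.21), against 7.29% and 3.25%. In the Mybl1 and Vxn cluster 3 of 17 were higher and 1 lower (-0.06), against 9.40% and 6.24%. In bipolar cells (18 measured, -0.39) 1 was higher and 1 lower, against 6.3% and 4.76%. The Ccdc136 and Gngt2 cluster (15 measured, 0.03) also had 1 higher and 1 lower, against 4.64% and 2.32%. These classes have fewer UMIs than endothelial cells, and a difference of these shares from the endothelial one was not tested.

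**Figure D5:**
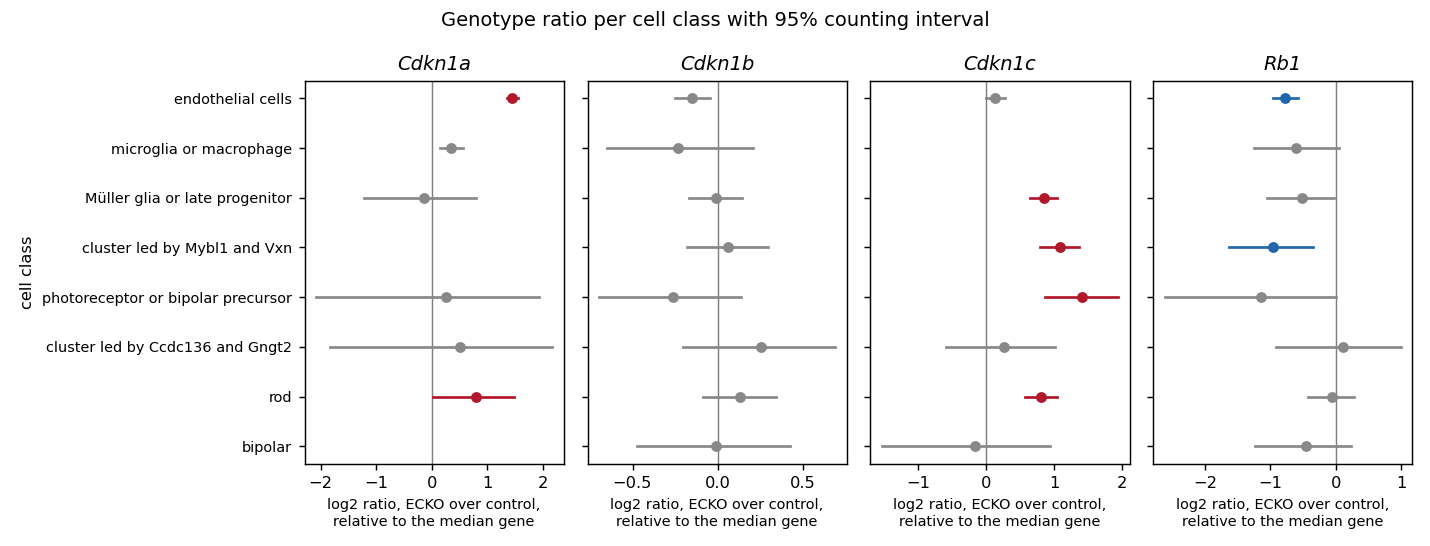
Relative log2 ratio of Alk1 ECKO over control (x axis, scaled per panel) of Cdkn1a, Cdkn1b, Cdkn1c and Rb1 in 8 cell classes with at least 50 cells in each library (y axis), with 95% counting intervals. Red points were called higher, blue lower and grey neither, and genes under 30 UMIs in a class are left out. Cdkn1a has its narrowest interval in endothelial cells (1.46, 1.35 to 1.56), which the interval in rods (0.03 to 1.48) overlaps, and Cdkn1c is higher in 4 of the other classes.

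Dividing cells of the neural retina offered a second view of the cell cycle. Of 727 control Müller glia or late progenitors, 73 were cycling, against 5 of 189 in Alk1 ECKO, too few to describe. The histone-rich cluster led by Igf2 and Hist1h3c (121 control cells), with Top2a among its leading genes, got no class name and is not counted here. Its highest markers were those of astrocytes. With doublets kept, a cluster led by Hist1h3c and Hist1h1b (117 control cells) had Müller glia or late progenitor markers highest. In control Cdkn2c was at 76.6 CPM in cycling and 20.1 CPM in non-cycling cells of the class (1.94, 1.34 to 2.52). Cdkn1a was at 60.4 CPM in cycling and 6.27 CPM in non-cycling cells (3.28, 2.46 to 4.12), and Phlda3 at 20.2 and 5.49 CPM (1.89, 0.64 to 3.04, on 10 and 21 UMIs). Thus 3 of the 9 genes were higher, against 10.3% of measured genes, and 0 lower, against 7.57%. Cdkn1c, at 129.0 and 192.0 CPM (-0.56, -0.95 to -0.19), did not pass 1.5-fold. Depth did not separate these 2 states, with medians of 6060 and 6053 UMIs.

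Over 16 points (8 classes in each of 2 libraries), the genes whose levels were most like Cdkn1a by Pearson correlation of log2(CPM + 10) were Plaur, Gmfg and Ctla2b (r 0.96 each). Those most like Phlda3 were Tcim (0.91), Rasgrp2 (0.90) and Prr5 (0.90). Cdkn1b was like Galnt13 (0.94) and Gpm6b (0.94), and Cdkn1c most like Sfr1 (0.91), Dach1 (0.91) and Mrps31 (0.91). For Cdkn2c they were Plpp3 (0.89), Isoc1 (0.87) and Mcee (0.82), and for Cdkn2d Tbcc (0.95), Uba2 (0.93) and Ttll1 (0.93). For Mdm2 they were Wdr26 (0.95), Rsrp1 (0.93) and Abraxas2 (0.93), for Ccng1 Fam173a (0.89), Arf3 (0.86) and Susd3 (0.85), and for Rb1 Ythdf3 (0.96), Mysm1 (0.95) and Lats1 (0.95). Among the 9 themselves Cdkn1b and Cdkn1c had r 0.83, Cdkn1a and Phlda3 0.73, and Cdkn1a and Cdkn1b -0.73. These values describe 6858 candidate genes, and the points share libraries and free RNA.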

How the data were processed

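The deposited matrices hold UMI counts per gene and barcode, which the authors made with Cell Ranger (version 5.0.1 per the file headers, 6.1.1 per the submitters' processing notes, which also name FastQC 0.11.9 and mm10). The sources used here do not say whether intronic reads were counted. The cell filter asked for 1000 UMIs, 500 genes and a mitochondrial share up to 10%, which 4237 Alk1 ECKO and 7909 control cells met. Scrublet's automatic threshold called 1 and 0 doublets, so the highest scores were removed at 0.8% per 1000 cells (144 and 500). Both libraries were clustered together (scanpy 1.11.5, 3000 variable genes, 30 components, 15 neighbours, scikit-learn 1.9.0, leidenalg 0.10.2, resolution 1.0; endothelial sub-clusters 0.6 on 2000 genes), leaving out the 9 genes, the context lists, Mki67 and Top2a. Clusters took a class name from at least 3 markers among their top 20 genes. Set aside were clusters whose cells had a median of under 1% mitochondrial UMIs, a median doublet score above 0.12 or markers of another class. These rules were chosen with the clusters known. In 283 Alk1 ECKO and 1986 control cells the cluster got no class name.

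UMIs were summed per class and library and given as CPM. Intervals at 95% are exact Poisson for sums, conditional binomial for ratios and Clopper-Pearson for shares (scipy 1.17.1). Ratios and calls were tried on simulated Poisson counts, the model that the intervals assume. This does not cover spread between cells or animals. Positions are from GENCODE vM21: Cdkn1a lies on chromosome 17 (29090976 to 29100727), Cdkn1b on 6 (134920401 to 134925513), Cdkn1c on 7 (143458339 to 143461050), Cdkn2c on 4 (109660876 to 109667189), Cdkn2d on 9 (21288410 to 21291407), Phlda3 on 1 (135766119 to 135769136), Mdm2 on 10 (117688875 to 117710758), Ccng1 on 11 (40748552 to 40755311) and Rb1 on 14 (73183673 to 73325822). Cdkn1a, Cdkn1c and Rb1 overlap genes on the other strand, and Rb1 also Gm17233 and Mir687 on its own.

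The 9 genes, the context lists and the markers were chosen with earlier results of these data known. All 9 are named, with Mki67, Top2a and Acvrl1, at most the 3 highest and 3 lowest ratios of each context list, and the 3 genes most like each in level among those with at least 50 CPM in a class. One gene under this rule is not reported here. Alternatives covered cell filters, doublets, choice of endothelial cells, scaling, summary over cells, thresholds, cycling rules and sub-cluster makeup.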

Additional observations from a re-analysis of the deposited data

Results flagged for a closer look

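Barcodes with few mitochondrial UMIs were set aside from the main comparisons. The intervals of Phlda3, Cdkn1a, Cdkn1c and Cdkn2d in them lay above those of control endothelial cells, and those of Rb1, Cdkn1b and Mdm2 lay below. The share of all genes that differ in this way is not given, and these levels are not set relative to the median gene. In these 1244 Alk1 ECKO barcodes (median 1873 UMIs) Phlda3 was at 67.73 CPM (59.1 to 77.2), against 11.2 CPM in control endothelial cells. Cdkn1a was at 103.1 CPM, against 73.5 CPM, Cdkn1c at 74.74 CPM, against 46.0 CPM, and Cdkn2d at 63.15 CPM, against 33.8 CPM. Cdkn2c, at 21.05 CPM against 16.89 CPM, had overlapping intervals. So had Ccng1, at 10.4 CPM against 14.7 CPM. The other 3 genes lay below their control level, Rb1 at 2.44 CPM (8 UMIs) against 30.4 CPM, Cdkn1b at 19.2 CPM against 93.7 CPM and Mdm2 at 13.4 CPM against 30.6 CPM. The control library held 3 such barcodes, so no control level is given. Haemoglobin genes led the clusters of these barcodes, and how many of them are endothelial cells was not tested.

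Cdkn1c differed between genotypes in opposite directions in endothelial sub-clusters, with intervals off 0 in both: its relative log2 ratio was -1.093 in the Cxcl12 sub-cluster and 0.6535 in the Spock2 sub-cluster. The difference between these ratios was not tested, and the first rests on 22 control cells.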

How the results depend on the processing

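No ratio in the 3 endothelial comparisons changed sign where it had been called. In endothelial cells Cdkn1a (1.24 to 1.58) and Phlda3 (1.42 to 3.39) were called higher under all 18 alternatives, Ccng1 (0.28 to 0.83) under 13 and Rb1 lower (-0.99 to -0.43) under 16. With a 2-fold threshold, or with sub-clusters weighted to the same shares, 0 of the 9 genes were lower in Alk1 ECKO instead of 1. For cycling over non-cycling cells of Alk1 ECKO, 1 gene instead of 2 was higher at 2-fold or with the low-mitochondrial clusters included. There, 2 instead of 1 were lower by the mean of per-cell CPM, by ratios not set relative to the median, at the lower fold threshold, or with cycling defined by the mitosis panel. In control, the sum after thinning to 5000 UMIs gave 0 instead of 3 higher and 1 instead of 2 lower. The lower count was also 1 at 2-fold and with Mki67 and Top2a counted after thinning.

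No paired analysis was possible because each genotype had 1 library, and no replicate could be left out. Leaving out the sub-cluster rich in mural markers, or cells under 5000 UMIs, was chosen after seeing the data and kept all 6 counts within 1.5 times. Counts limit Phlda3 in control (119 endothelial UMIs) and every gene in non-vascular classes of Alk1 ECKO.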
